A study of Mus musculus with 6 samples.

Results

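The genes described here are the cilium and axoneme genes of the mouse with a probe on the array, together with Foxj1, the forkhead transcription factor that switches on the genes of motile cilia. Members were taken by name: every gene whose symbol begins with Dnah, Dnaic, Dnali, Tekt, Bbs or Ift and goes on with a digit, plus Foxj1, Rfx1, Rfx2, Rfx3, Rsph1, Spag6, Spag16 and Mns1. This gave 36 genes of 16535 genes with a named probe: 28 in the families (3 Dnah, 1 Dnaic, 1 Dnali, 3 Tekt, 6 Bbs and 14 Ift) and 8 named singly. A further 17 genes that fit the rule were not analysed here (Bbs1, Bbs10, Dnaic2, Tekt3, Tekt5 and 12 Dnah genes). No measured value enters the rule, but the grouping was proposed with earlier results of these arrays known, and the 8 single genes were picked by name, so their values are given as a description without a test.

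The material was cells that the labels call primary Sertoli cells, the somatic cells that surround and nourish germ cells in the seminiferous tubule, isolated from C57BL/6J mice. All groups grew at 34 °C in F12/DMEM that held epidermal growth factor at 5 ng/ml, insulin at 10 µg/ml and transferrin at 5 µg/ml, with the medium renewed on days 2 and 4. From day 5 the cells received vehicle, 20 ng of bFGF (basic fibroblast growth factor, which signals through receptor tyrosine kinases; the volume is not given in the sources used here) or 10 µM PD0325901 (an inhibitor of the kinases MEK1/2, which activate ERK) for 24 h. Each of the 3 groups has 2 arrays, and each array is 1 Cy3-labelled RNA on an Agilent mouse array. The age and number of the animals are not given in the sources used here, and nothing says that the 2 arrays of a group came from separate cultures, so the p-values measure the spread between these arrays, which may be technical. The groups were hybridised on 3 slides, 1 group on each, and therefore the effects of slide and treatment cannot be told apart.

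The cilium is built on a microtubule axoneme that grows from a basal body. Motile cilia and sperm flagella add dynein arms, radial spokes and a central pair to the doublet microtubules, whereas primary cilia lack these parts and serve as sensory antennae, for instance for Hedgehog signals. Intraflagellar transport (IFT) trains carry cargo along the axoneme in both kinds, and the BBSome moves membrane proteins in and out. Foxj1 is known for driving the motile program, and the RFX factors bind X-box sequences in promoters of ciliary genes. In the testis, axonemal genes are used above all by spermatids, which build the sperm tail.

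Promoter sequences of 31 of the 36 genes were matched by symbol in RefSeq (GRCm38.p6); Foxj1, Ift80, Ift81, Ift122 and Rsph1 had no entry. Each window runs from 250 bases before to 50 bases after the annotated start, 300 bases in all. The windows were searched on both strands for the X-box half-site GTTGCC. A gene counted where any of its windows held it: 16 of 31 members (51.6%), against 14.1% of 27025 genes. Some genes have more windows than others, and the number of windows was not matched. The longer spelling GTTGCCAT, which contains the half-site, stood in 1 member, Tekt1 (1.54% of all genes). The forkhead core TGTTTAC, which does not overlap the X-box spellings, was found in no window of these 31 genes (4.05% of all genes). In all, 12 spellings were searched, and those given were picked after their counts were seen. A match is a description of the letters and not a measured binding site.

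The windows below belong to Tekt2, Ift57 and Bbs9, the family genes that passed the test of PD0325901 against vehicle under every alternative setting run, and to Tekt1, which held the longer spelling. They lie at chr4:126325597-126325896 (Tekt2, minus strand), chr16:49699044-49699343 (Ift57, plus strand), chr9:22475465-22475764 (Bbs9, plus strand) and chr11:72361833-72362132 (Tekt1, minus strand) of GRCm38.p6, and are written 5′ to 3′ along the gene. Capitals mark GTTGCC or its reverse complement GGCAAC. Tekt1 has 2 windows and Tekt2 has 3, and for both genes the window with the most matches is shown. Ift57 and Bbs9 have 1 window each. In the windows shown, Tekt1, Tekt2 and Ift57 have 2 matches each, and Bbs9 has 0.
Tekt1: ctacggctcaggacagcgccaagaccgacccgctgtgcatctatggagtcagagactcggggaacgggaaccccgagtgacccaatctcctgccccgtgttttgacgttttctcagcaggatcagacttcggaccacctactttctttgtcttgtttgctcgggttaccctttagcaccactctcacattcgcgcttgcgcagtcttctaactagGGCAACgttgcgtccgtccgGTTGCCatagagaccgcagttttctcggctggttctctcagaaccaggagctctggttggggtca
Tekt2: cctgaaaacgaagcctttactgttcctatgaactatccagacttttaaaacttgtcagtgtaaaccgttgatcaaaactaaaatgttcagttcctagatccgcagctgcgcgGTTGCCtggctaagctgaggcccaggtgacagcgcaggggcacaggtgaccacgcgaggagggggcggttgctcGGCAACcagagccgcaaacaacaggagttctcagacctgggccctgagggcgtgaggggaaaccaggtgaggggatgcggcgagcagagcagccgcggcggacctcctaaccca
Ift57: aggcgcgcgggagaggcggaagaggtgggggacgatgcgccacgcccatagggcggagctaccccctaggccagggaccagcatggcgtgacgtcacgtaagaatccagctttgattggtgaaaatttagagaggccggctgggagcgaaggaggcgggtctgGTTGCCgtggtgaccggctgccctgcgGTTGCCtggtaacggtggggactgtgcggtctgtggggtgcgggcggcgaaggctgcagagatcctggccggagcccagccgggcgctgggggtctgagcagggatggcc
Bbs9: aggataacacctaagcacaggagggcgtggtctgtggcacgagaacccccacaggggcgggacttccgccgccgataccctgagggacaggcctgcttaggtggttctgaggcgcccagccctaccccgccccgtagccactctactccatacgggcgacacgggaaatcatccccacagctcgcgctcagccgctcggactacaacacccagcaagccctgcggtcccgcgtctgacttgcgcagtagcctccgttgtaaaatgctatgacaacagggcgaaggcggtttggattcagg

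Levels are given as the log2 signal relative to the 75th percentile of the same array, so that 0 is that percentile, and they are compared between arrays for the same probe and never between genes. The 75th percentile lay between 1464 and 1613 signal units, and no spot was saturated. Between 64.9% and 66.6% of probes were well above background on the vehicle and PD0325901 arrays and between 75.6% and 75.9% on the bFGF arrays; the lowest signal well above background was -6.55 to -6.19 on the former and -7.12 to -6.98 on the latter. The 36 genes all counted as detected, that is, at least 1 group had the probe well above background on both its arrays; Dnah5, Dnah11 and Rfx3 were not above it on any array of at least 1 other group. All 15 Sertoli cell markers tested were above background on all 6 arrays, among them Clu, a secreted chaperone abundant in Sertoli cells (vehicle mean 7.88). Genes used as markers of other cells gave signal too, and the gene of each list with the highest vehicle mean is given: Uchl1 (germ cells, vehicle mean 4.67), Ldhc (spermatocytes and spermatids, 3.57), Krt18 (simple epithelia such as the rete, 2.58), Tagln (peritubular myoid cells, 5.00), Star (Leydig cells, 3.25), Lyz2 (macrophages, 3.17) and Kdr (endothelium, -0.72). The highest mean only picks the gene named, and which cells its signal came from was not tested. The mean over all tested genes of a list was lower. On the vehicle arrays it was -1.75 to -1.65 for early germ cells, -3.58 to -3.57 for spermatids and -2.64 to -2.55 for rete and efferent ducts. It was 1.37 to 1.47 for myoid, 1.12 to 1.18 for Leydig, -1.72 to -1.69 for macrophage and -3.30 to -2.63 for endothelial markers. In bulk RNA, fewer cells of a type and less RNA per cell cannot be told apart.

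Foxj1, the marker of the group, was high on the PD0325901 arrays and low on the bFGF arrays. Its levels were -3.28 and -3.15 with vehicle, -3.92 and -3.87 with bFGF, and -1.80 and -1.91 with PD0325901. The groups did not overlap, and the bFGF arrays lay below the vehicle arrays while the PD0325901 arrays lay above them. The PD0325901 mean was 2.56-fold higher than the vehicle mean (log2 difference 1.36 ± 0.07, SE), and the bFGF mean was 1.60-fold lower (-0.68 ± 0.07). Across 14 alternatives, the difference ran from 1.11 to 1.42 for PD0325901 and from -0.86 to -0.46 for bFGF. These alternatives changed the processing, the model or the arrays used. Several of them could not change the difference, since Foxj1 has no further probe and was above background on every array. These are the filters on dim probes, the mean of probes, the replicate block and the fit of only the groups compared. Leaving out an array of the group not compared could not change it either. Such settings do not test how stable the difference is.

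The 3 RFX factors showed smaller differences. Rfx1, broadly expressed, had levels of -0.71 and -0.62 with vehicle, -0.54 and -0.64 with bFGF, and -0.75 and -0.76 with PD0325901. The vehicle and bFGF arrays overlapped, and the PD0325901 arrays lay just below (difference from vehicle -0.08 ± 0.06). A dimmer second probe of Rfx1 was lower by more on the PD0325901 arrays (-0.70). Rfx2, known for its role in spermatid development, had -3.13 and -3.65 with vehicle, -3.21 and -3.10 with bFGF, and -3.53 and -3.62 with PD0325901. Its vehicle arrays lay further apart than any 2 of its group means. Rfx3, a regulator of ciliogenesis, was dim: -7.06 and -6.91 with vehicle, -6.52 and -6.20 with bFGF, and -6.12 and -6.72 with PD0325901. It was well above background on no vehicle array, on both bFGF arrays and on 1 PD0325901 array, and its 2 probes differed in sign between PD0325901 and vehicle, so no direction is given there.

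The 4 axonemal genes named singly did not share the Foxj1 pattern in these arrays. Mns1, a protein inside the doublet microtubules, had 1.69 and 1.61 with vehicle, 2.00 and 2.10 with bFGF, and 1.78 and 1.83 with PD0325901. Both treatments lay above vehicle, bFGF by 0.40 ± 0.06 and PD0325901 by 0.16 ± 0.06. Rsph1, a radial spoke head protein, had 0.26 and 0.10 with vehicle, 0.35 and 0.50 with bFGF, and -0.07 and 0.03 with PD0325901. Here bFGF lay above vehicle (0.25 ± 0.09) and PD0325901 below it (-0.19 ± 0.09). Spag6, a central pair protein, had -5.15 and -5.62 with vehicle, -4.48 and -4.70 with bFGF, and -5.09 and -4.71 with PD0325901, so that both treatments lay above vehicle with a wide spread (0.80 ± 0.22 and 0.48 ± 0.22). Its probe may also catch Spag6l, a close copy. Spag16, another central pair protein, had -0.22 and -0.61 with vehicle, -0.28 and -0.17 with bFGF, and -0.16 and -0.10 with PD0325901. The bFGF arrays overlapped the vehicle arrays, and the PD0325901 arrays lay above them by 0.29 ± 0.14.

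**Figure D1:**
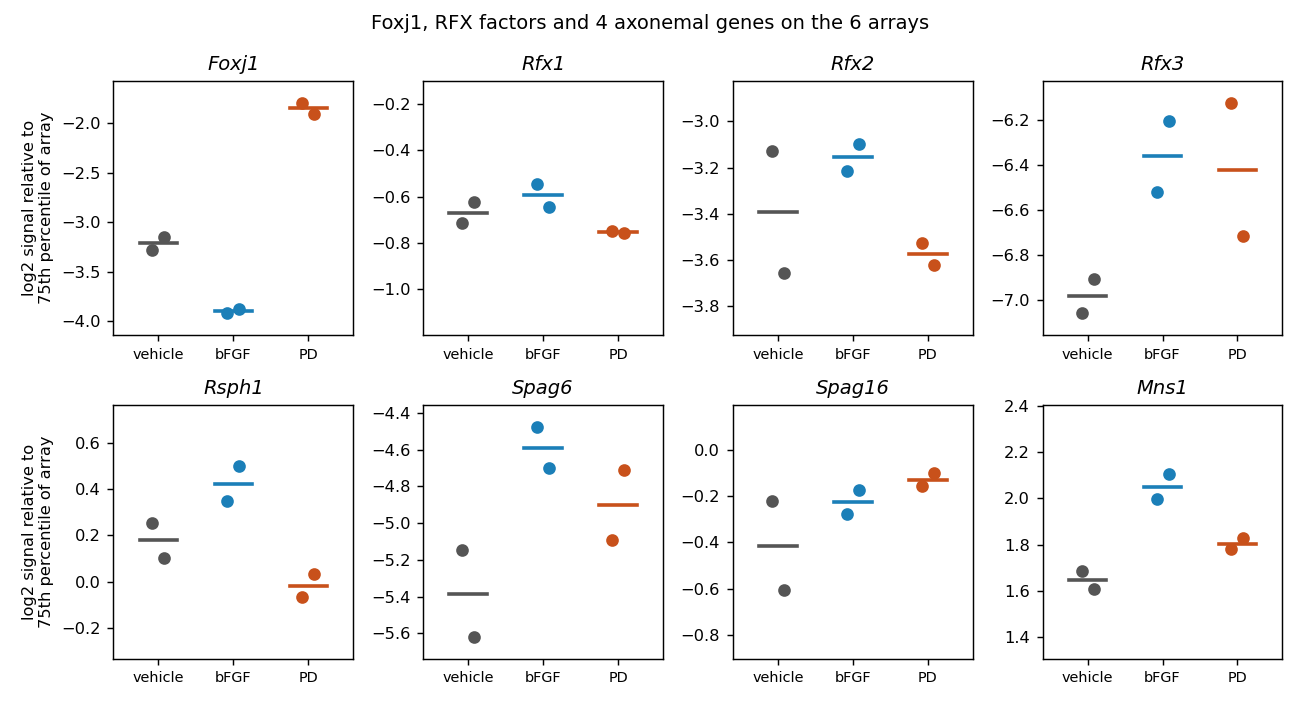
Log2 signal relative to the 75th percentile of the array (vertical axis, a separate range per gene) of the 8 singly named genes in the 3 groups; each point is 1 array, each bar the mean of the 2 arrays, and PD is PD0325901. Foxj1 is the gene with bFGF below vehicle (-3.92 and -3.87) and PD0325901 above it (-1.80 and -1.91), whereas Mns1 and Spag6 lie above vehicle with both treatments and Rsph1 lies above it with bFGF and below it with PD0325901.

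The comparison of PD0325901 with vehicle asks what changed in the cells when MEK was inhibited. Among the 28 family genes, 12 were higher and 2 lower with PD0325901 and 14 did not pass (limma, adjusted p under 0.05). Among all 14236 genes tested, 53.4% passed, 24.1% higher and 29.3% lower, so most genes tested moved and a count of members is to be read beside that background. The median log2 difference was 0.15 over the 28 genes and -0.05 over all genes. The arrays of the groups did not overlap for 19 members on the higher side and 6 on the lower side, against 79.7% of all genes, 35.8% higher and 43.9% lower. Leaving out either PD0325901 array left 4 genes, Tekt2, Bbs9, Ift46 and Ift57, at all-gene shares of 35.7% and 36.1%.

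Of the tektins, filament proteins of the doublet microtubules, Tekt2 rose most with PD0325901. Its levels were -1.14 and -1.36 with vehicle, -1.17 and -1.18 with bFGF, and -0.41 and -0.42 with PD0325901. The PD0325901 arrays stood apart from the 4 others, by 1.78-fold over vehicle (0.83 ± 0.08, limma adjusted p = 0.00197). Tekt1 had -0.38 and -0.22 with vehicle, 0.17 and 0.39 with bFGF, and 0.11 and 0.02 with PD0325901. It rose with PD0325901 (0.37 ± 0.10, limma adjusted p = 0.0382), and its second probe differed by 0.18; the call was lost under 6 of 14 alternatives. Tekt4 had -1.58 and -1.88 with vehicle, -1.31 and -1.21 with bFGF, and -1.73 and -1.75 with PD0325901. Its PD0325901 arrays fell between the vehicle arrays (-0.01 ± 0.11), and its bFGF arrays lay above all others.

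The dynein chains moved in different directions. Dnali1, a light intermediate chain of the inner arms, had -3.27 and -3.32 with vehicle, -2.68 and -2.46 with bFGF, and -2.92 and -2.88 with PD0325901. It rose with PD0325901 by 0.39 ± 0.08 (limma adjusted p = 0.0177). Dnaic1, an intermediate chain of the outer arms, had -2.49 and -2.36 with vehicle, -2.45 and -2.36 with bFGF, and -2.76 and -2.79 with PD0325901. It fell with PD0325901 by 0.36 ± 0.07 on the log2 scale (limma adjusted p = 0.0115), with the vehicle and bFGF arrays overlapping above. Dnah8, a heavy chain of outer arms in sperm, had -0.77 and -1.01 with vehicle, -0.25 and 0.07 with bFGF, and -0.50 and -0.52 with PD0325901. Its PD0325901 arrays lay above the vehicle arrays but did not pass (0.38 ± 0.14, limma adjusted p = 0.0783).

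The other heavy chains were near background. Dnah5, of the outer arms, had -7.34 and -6.04 with vehicle, -4.88 and -4.99 with bFGF, and -8.31 and -7.43 with PD0325901. It was well above background on the bFGF arrays and on no other, so it was kept as detected only through that group. Since that is the group where it is high, its values are given as a description: at least 2.32-fold higher with bFGF than with vehicle, and at least 2.77-fold lower with PD0325901 than with bFGF. Here, "at least" means that a dim array entered with its lowest signal well above background, or with the probe's own signal where that was higher. The other 2 probes of Dnah5 were well above background on no array. Dnah11, another outer arm heavy chain, had -5.36 and -7.08 with vehicle, -6.64 and -6.92 with bFGF, and -8.20 and -7.52 with PD0325901. It was well above background on 1 of 2 vehicle arrays, on both bFGF arrays and on no PD0325901 array, and no comparison of it passed.

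The Bbs genes code for the BBSome and its assembly factors, and they differed among themselves with PD0325901: 2 rose, 1 fell and 3 did not pass. The share that passed, 50%, was near the 53.4% of all genes. Bbs9, a subunit of the BBSome, had 0.64 and 0.61 with vehicle, 0.72 and 0.77 with bFGF, and 1.36 and 1.39 with PD0325901. It was 1.68-fold higher with PD0325901 (0.75 ± 0.04, limma adjusted p = 4.39e-04), far outside the spread within groups. Bbs2, another subunit, had -1.63 and -1.86 with vehicle, -1.74 and -1.80 with bFGF, and -1.29 and -1.37 with PD0325901, a rise of 0.41 ± 0.09 (limma adjusted p = 0.0185). Bbs12, a chaperonin-like protein that helps to assemble the BBSome, had -2.87 and -3.04 with vehicle, -2.98 and -2.92 with bFGF, and -3.29 and -3.17 with PD0325901. It fell by 0.27 ± 0.08 on the log2 scale (limma adjusted p = 0.0446), a call that 4 of 14 alternatives kept. The subunits Bbs4 (-0.03 ± 0.06), Bbs5 (0.06 ± 0.04) and Bbs7 (0.19 ± 0.07) did not pass; the levels of Bbs5 were 1.12 and 1.19 with vehicle, 1.13 and 1.12 with bFGF, and 1.1998 and 1.2291 with PD0325901.

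Of the 14 Ift genes, 7 rose with PD0325901 and 7 did not pass (median difference 0.15). The share that passed, 50%, was near the 53.4% of all genes. By direction, 50% rose and 0% fell, against 24.1% and 29.3% of all genes. Ift57, a peripheral subunit of the IFT-B complex, had 2.04 and 2.01 with vehicle, 1.97 and 1.98 with bFGF, and 2.53 and 2.51 with PD0325901. The PD0325901 arrays stood 1.41-fold above vehicle (0.50 ± 0.04, limma adjusted p = 9.25e-04). Ift46, an IFT-B core subunit, had 3.67 and 3.79 with vehicle, 3.59 and 3.68 with bFGF, and 4.15 and 4.15 with PD0325901, a rise of 0.42 ± 0.06 (limma adjusted p = 0.00582). A dim second probe of Ift46 differed the other way (-0.19), and with the probes averaged the gene did not pass. Ift27, a small GTPase of IFT-B, had 3.17 and 3.30 with vehicle, 3.25 and 3.22 with bFGF, and 3.54 and 3.59 with PD0325901, a rise of 0.33 ± 0.06 (limma adjusted p = 0.0113).

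The other Ift genes that passed were Ift80 (0.32), Ift52 (0.14) and Ift20 (0.14) of IFT-B and Ift140 (0.31) of IFT-A, the complex of the return trip, with limma adjusted p between 0.0143 and 0.0464. Ift20 had 3.98 and 3.98 with vehicle, 3.88 and 3.94 with bFGF, and 4.12 and 4.11 with PD0325901. The second probe of Ift52 differed by -0.04, and Ift20, Ift52 and Ift140 passed under 3, 4 and 5 of the 14 alternatives. Differences of the 7 that did not pass ran from -0.13 to 0.17: Ift22, Ift74, Ift81, Ift88 and Ift172 of IFT-B and Ift43 and Ift122 of IFT-A. Ift74 and Ift81, which bind tubulin together, both lay on the lower side (-0.13 each).

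**Figure D2:**
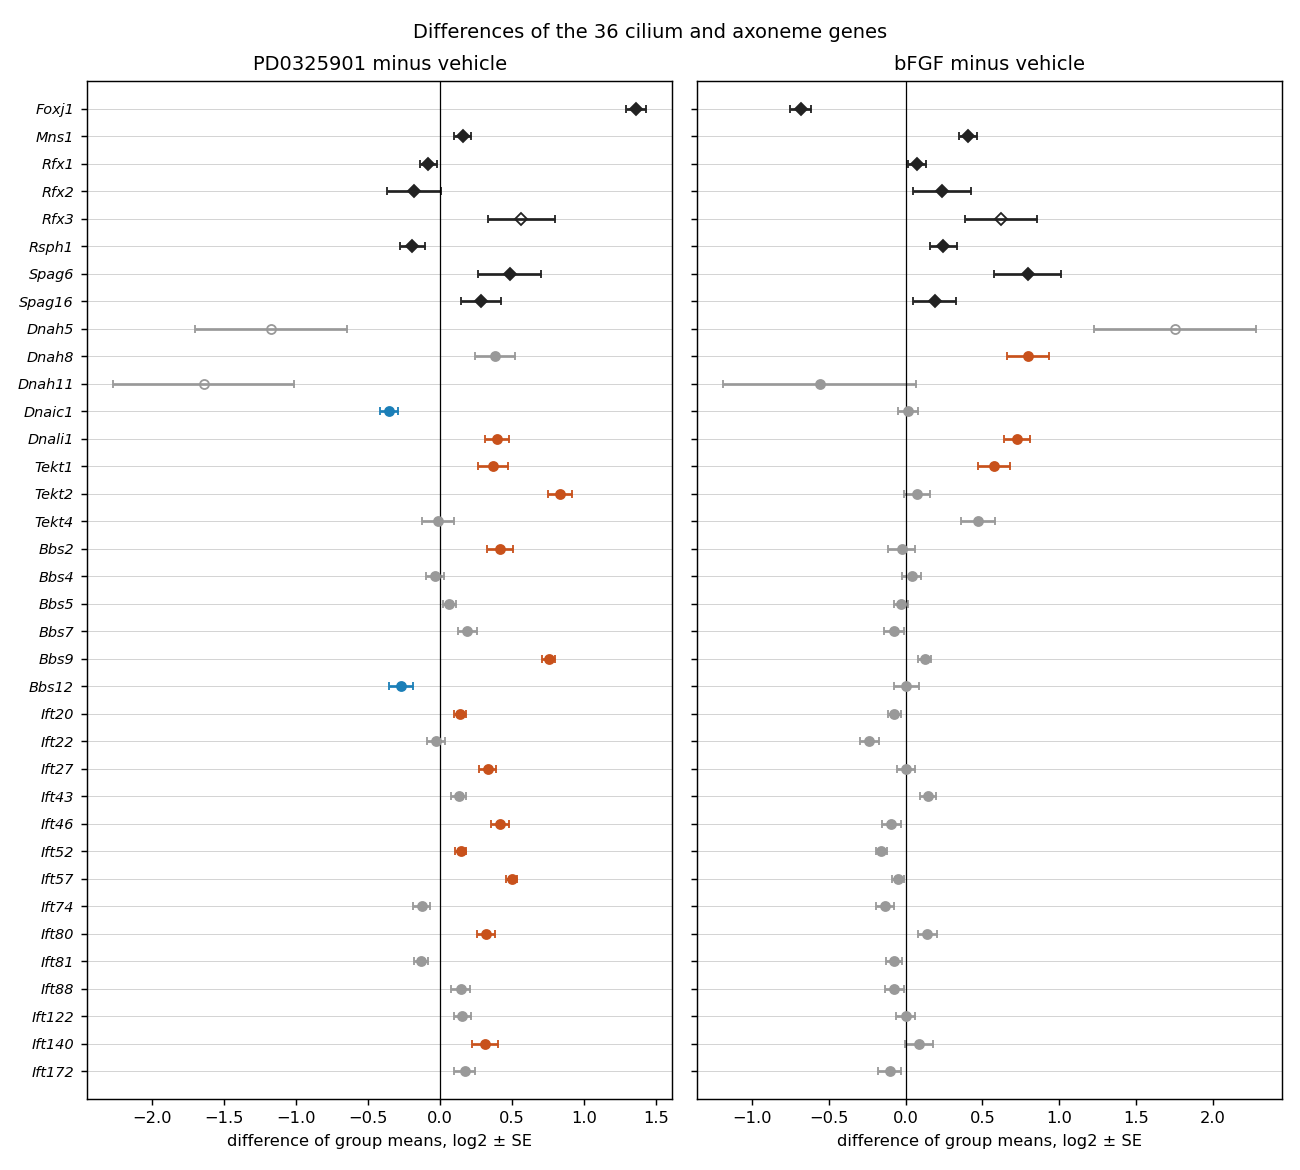
Difference of group means on the log2 scale with its SE (horizontal axis) for each of the 36 genes (vertical axis), PD0325901 minus vehicle on the left and bFGF minus vehicle on the right, both against the same 2 vehicle arrays. Orange circles passed as higher and blue circles as lower, grey circles did not pass, black diamonds are the 8 genes given without a test, and open symbols mark genes below background in a group; Foxj1 lies at 1.36 on the left and -0.68 on the right, and the Ift genes sit close to 0 on the right.

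The comparison of bFGF with vehicle asks what the growth factor changed in cells that already received epidermal growth factor. It moved fewer genes: 19.9% of all genes passed, 12.6% higher and 7.28% lower. Among the 28 family genes, 3 rose, none fell and 25 did not pass (median 0.00, against 0.03 over all genes). The share that rose, 10.7%, was near the 12.6% of all genes. All 3 that rose are axonemal. Dnah8 and Tekt1 lost their calls with the replicate number as a block and with only the arrays of the 2 groups. Dnali1 rose by 0.73 ± 0.08 (1.65-fold, limma adjusted p = 0.0146), Dnah8 by 0.80 ± 0.14 (1.74-fold, adjusted p = 0.0283) and Tekt1 by 0.57 ± 0.10 (1.49-fold, adjusted p = 0.0293), with both bFGF arrays above both vehicle arrays for each. Arrays of these groups did not overlap for 8 members on the higher side and 6 on the lower side, against 67.6% of all genes, 38.1% higher and 29.4% lower. Tekt4 lay 0.47 ± 0.11 higher and missed the threshold (limma adjusted p = 0.0512).

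None of the 6 Bbs and 14 Ift genes passed with bFGF, in limma with adjustment over all genes. Their differences ran from -0.08 to 0.12 for Bbs and from -0.24 to 0.15 for Ift, and the widest, Ift22 at -0.24 ± 0.06, had an adjusted p of 0.0614. Over the 8 Dnah, Dnaic, Dnali and Tekt genes the median difference was 0.52, and over the 14 Ift genes it was -0.07. Without bFGF replicate 2, limma called 0 of 14236 genes (3722 at an unadjusted p under 0.05), and so none of the 3. Without vehicle replicate 2, bFGF replicate 1 or either PD0325901 array, Dnali1 was the only family gene that passed.

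PD0325901 and bFGF were also compared directly, which leaves out the vehicle arrays as a common baseline. Of all genes, 62% passed, 25.4% higher with PD0325901 and 36.6% lower. Of the 28 family genes, 12 were higher and 5 lower with PD0325901 (median 0.16, against -0.08 over all genes). Their arrays did not overlap for 16 members on the higher side and 10 on the lower side, against 86.6% of all genes, 36.8% higher and 49.8% lower. Among the 8 Dnah, Dnaic, Dnali and Tekt genes, 1 was higher and 4 were lower (median -0.40). Dnah5 is among these 4; without Dnah5 and Dnah11, which were below background in a group, 1 of 6 was higher and 3 were lower (median -0.35). Over the 26 family genes without them, 12 were higher and 4 lower (median 0.19). Among the 14 Ift genes 8 were higher and none lower (median 0.21). Tekt2 was higher with PD0325901 by 0.76 ± 0.08 (limma adjusted p = 0.00212), Bbs9 by 0.63 ± 0.04 (adjusted p = 5.56e-04), Ift57 by 0.54 ± 0.04 (adjusted p = 6.01e-04) and Ift46 by 0.51 ± 0.06 (adjusted p = 0.00271). The dim second probe of Ift46 differed the other way (-0.55), and with the probes averaged the gene did not pass. Tekt4 (-0.48 ± 0.11, adjusted p = 0.0189), Dnaic1 (-0.37 ± 0.07, adjusted p = 0.00847) and Dnali1 (-0.33 ± 0.08, adjusted p = 0.0257) were lower with PD0325901. Foxj1 was 4.11-fold higher with PD0325901 than with bFGF (2.04 ± 0.07). Leaving out any of the 4 arrays compared left between 7 and 11 family genes past the threshold.

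**Figure D3:**
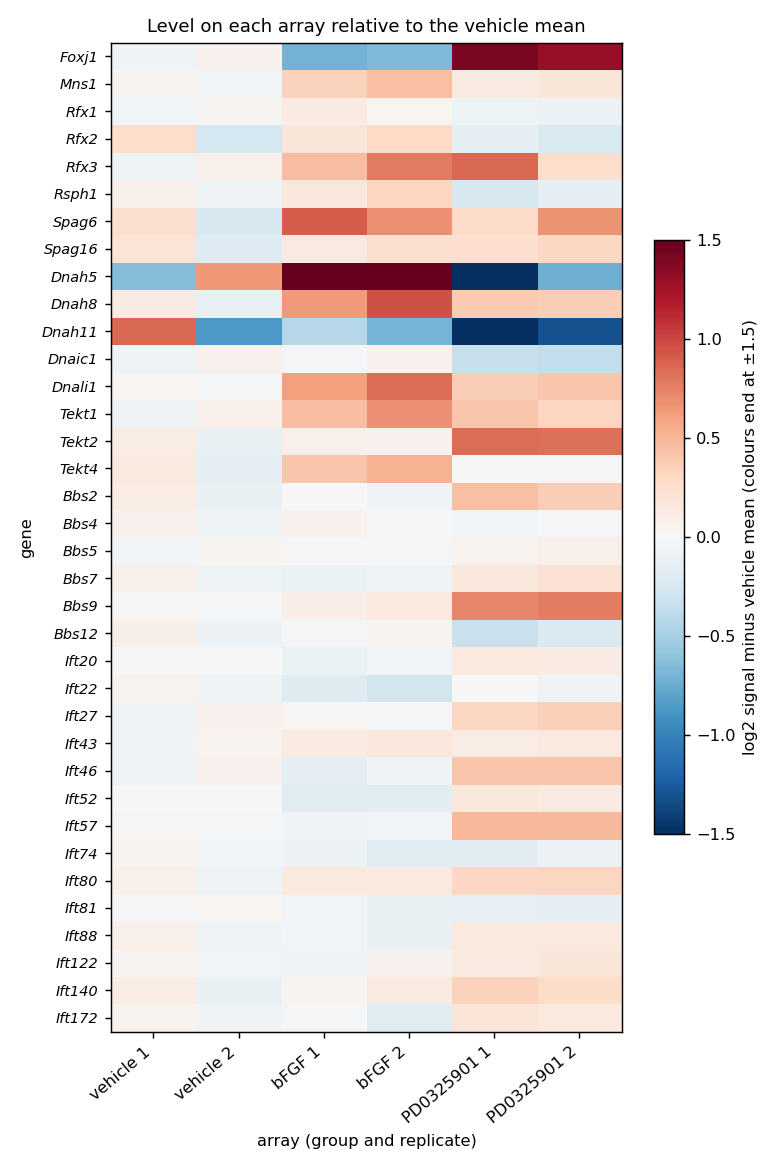
Log2 signal of each of the 36 genes (rows) on each of the 6 arrays (columns) minus the mean of the 2 vehicle arrays, with colours ending at 1.5 on either side. The 2 arrays of a group have like colours for most genes, and the near-background rows Dnah5, Dnah11 and Rfx3 vary within groups. Foxj1 is blue on the bFGF arrays and red on the PD0325901 arrays. For Ift20, Ift52 and Ift57 both arrays also lay below vehicle with bFGF and above it with PD0325901. Their differences were smaller (-0.16 to -0.05 with bFGF and 0.14 to 0.50 with PD0325901). None of them passed with bFGF (limma adjusted p from 0.0526 to 0.390). A second probe of Ift57 differed by 0.04 with bFGF, and one of Ift52 by -0.04 with PD0325901. The share of all genes with this order of groups was not counted.

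Genes that work with these families were taken from lists of function, chosen with earlier results of these arrays known. The count of each list is to be read beside all genes. Of these, 24.1% rose and 29.3% fell with PD0325901, and 12.6% and 7.28% with bFGF. Of 15 factors that assemble or dock dynein arms, 4 rose (26.7%), 2 fell (13.3%) and 9 did not pass with PD0325901 (median 0.21). The share that passed, 40%, was below the 53.4% of all genes. Ccdc39, a ruler protein that sets the repeat along the doublet, had -4.41 and -4.73 with vehicle, -3.96 and -3.85 with bFGF, and -3.31 and -3.38 with PD0325901 (rise with PD0325901 1.22 ± 0.12, limma adjusted p = 0.00194). Dnaaf1, an assembly factor, had 0.01 and -0.21 with vehicle, 0.30 and 0.40 with bFGF, and 0.70 and 0.67 with PD0325901 (0.79 ± 0.09, adjusted p = 0.00277). The assembly factors Spag1 (-0.98 ± 0.04) and Dnaaf2 (-0.43 ± 0.05) fell. With bFGF, 7 of the 15 rose and none fell (median 0.45, or 0.38 without Dnaaf6, below background in a group), among them Wdr63, an inner arm protein (0.73 ± 0.12), Lrrc6 (0.68 ± 0.10), Ccdc39 (0.66 ± 0.12) and the assembly factor Zmynd10 (0.62 ± 0.07), with adjusted p between 0.0142 and 0.0313.

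Of 20 genes for radial spokes, the central pair and the nexin links, 10 rose and 2 fell with PD0325901 (median 0.34). That is 50% and 10%, against 24.1% and 29.3% of all genes. Rsph9, a spoke head protein, had -0.19 and -0.19 with vehicle, -0.32 and -0.17 with bFGF, and 0.49 and 0.50 with PD0325901 (0.69 ± 0.06, limma adjusted p = 0.00151), and Nme5 of the spokes rose by 0.57 ± 0.07. Hydin of the central pair (-0.67 ± 0.15) and Drc7 of the nexin link (-0.65 ± 0.15) fell. With bFGF 7 of the 20 rose and none fell (median 0.42; 6 of 19 and 0.40 without Dnajb13, below background with vehicle), among them Rsph6a (0.72 ± 0.12) and Cfap206 (0.59 ± 0.07).

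The list of other IFT subunits, IFT motors and BBSome genes changed in both directions with PD0325901: 10 of 26 rose and 5 fell (median 0.05). Without Kif17, below background in a group, the median was -0.01. That is 38.5% and 19.2%, against 24.1% and 29.3% of all genes. The kinesin-2 motor subunits Kif3b (0.63 ± 0.05) and Kif3c (0.62 ± 0.06) rose, and Mkks, a chaperonin-like partner of Bbs12 (-0.46 ± 0.04), and Wdr34, a dynein-2 intermediate chain (-0.30 ± 0.05), fell. Of 30 transition zone and basal body genes, 11 rose and 2 fell (median 0.13), with Nek8 (0.89 ± 0.06) and Cep97 (0.81 ± 0.04) among the former and Tmem216 (-0.39 ± 0.05) and B9d2 (-0.15 ± 0.04) the latter. With bFGF, none of the 26 passed and 4 of the 30 did, 2 in each direction, against 19.9% of all genes.

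In the list of multiciliation and centriole genes, 5 of 13 rose and 4 fell with PD0325901 (median -0.03), and none passed with bFGF. With PD0325901 that is 38.5% and 30.8%, against 24.1% and 29.3% of all genes. Mcidas, Gmnc and Ccno, known regulators of multiciliated cell formation, were not analysed here. Of other genes on the list, Trp73 had -1.61 and -2.22 with vehicle and -2.31 and -2.32 with PD0325901. Deup1 was below background in a group, and Myb was not detected. Tppp3, a tubulin-binding protein of multiciliated cells, rose by 1.45 ± 0.04 with PD0325901 (limma adjusted p = 1.01e-04), from 0.27 and 0.22 with vehicle to 1.68 and 1.70. Cetn4, a centrin, rose by 0.34 ± 0.10. The 2 genes that fell most, Plk4 (-0.81 ± 0.05) and Stil (-0.72 ± 0.08), act in centriole duplication, a step of the cell cycle. Of 14 Hedgehog pathway genes, 3 rose and 6 fell with PD0325901 (median -0.24): the ciliary protein Evc (0.65 ± 0.10) and the transducer Smo (0.56 ± 0.09) rose, and the coreceptor Gas1 (-0.82 ± 0.20) and the target gene Gli1 (-0.77 ± 0.14) fell. Gli1 was well above background on 1 of 2 PD0325901 arrays. With bFGF 1 of the 14 was called, namely the ligand Ihh, which was well above background on the bFGF arrays alone, was kept through them and lay at least 1.05-fold above vehicle.

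Markers of other cells that carry cilia or flagella were counted as well. Among all genes, 12.6% rose and 7.28% fell with bFGF, and 24.1% rose and 29.3% fell with PD0325901. The spermatid markers stood at 35.7% and 0% with bFGF, and at 14.3% and 28.6% with PD0325901. Of 14 spermatid markers tested, 5 rose and none fell with bFGF (median 0.62), in the comparison in which 3 of 8 dynein and tektin genes and 7 of 15 dynein assembly genes rose; the 5 include Spata19 (1.29 ± 0.15), the acrosomal protease Acr (0.75 ± 0.12) and Ldhc (0.69 ± 0.14). Their mean level was -3.58 to -3.57 with vehicle, -3.02 to -2.91 with bFGF and -3.83 to -3.60 with PD0325901, and 11 of 14 were above background on each vehicle array, 14 on each bFGF array and 11 to 12 on the PD0325901 arrays. Without Acrv1, Akap4 and Tssk2, which were above background on no array of a group, 4 of 11 rose with bFGF (median 0.50). With PD0325901, 2 rose and 4 fell (median -0.08, or -0.44 without those 3), with Meig1 up by 1.04 ± 0.08 and Prm1, a protamine of late spermatids, at -0.80 ± 0.19. Of 10 early germ cell markers, 4 rose and none fell with bFGF (median 0.41), and 5 rose and 1, Gfra1, well above background on no PD0325901 array, fell with PD0325901 (median 0.23); their mean level was -1.75 to -1.65 with vehicle, -1.39 to -1.22 with bFGF and -1.57 to -1.45 with PD0325901. The part of germ cells in the bFGF differences of the axonemal genes was not tested, nor was that of the lower background of the bFGF arrays.

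The next list holds 10 tested markers of the rete testis and efferent ducts, of which the efferent ducts have multiciliated cells. With PD0325901, 3 rose and 3 fell (30% each, against 24.1% and 29.3% of all genes). Without Krt7, which was below background in a group, 2 rose and 3 fell. The mean level of the list was -2.64 to -2.55 with vehicle, -2.82 to -2.41 with bFGF and -2.51 to -2.43 with PD0325901. Of the 10 differences with PD0325901, 7 were positive and 3 negative, from -1.22 for Aqp1 to 1.30 for Krt19. Krt19 had -4.76 and -5.07 with vehicle and -3.56 and -3.69 with PD0325901. Aqp1 had -1.65 and -1.62 with vehicle and -2.74 and -2.97 with PD0325901. Pax8, a defining factor of the epithelium of both, was not detected. The part of rete and efferent duct cells in the Foxj1 difference was not tested. With PD0325901 the 15 Sertoli markers changed in both directions (5 rose, 7 fell), 6 of 8 peritubular myoid markers rose, and 3 of 6 Leydig, 5 of 7 macrophage and 5 of 6 endothelial markers fell (4 of 4 endothelial markers without Pecam1 and Tie1, below background in a group). The mean level of the myoid markers was 1.37 to 1.47 with vehicle and 2.39 to 2.43 with PD0325901, that of the macrophage markers -1.72 to -1.69 and -2.43 to -2.39, and that of the endothelial markers -3.30 to -2.63 and -5.26 to -4.90. What these shifts contribute to the cilium genes with PD0325901 was not tested.

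**Figure D4:**
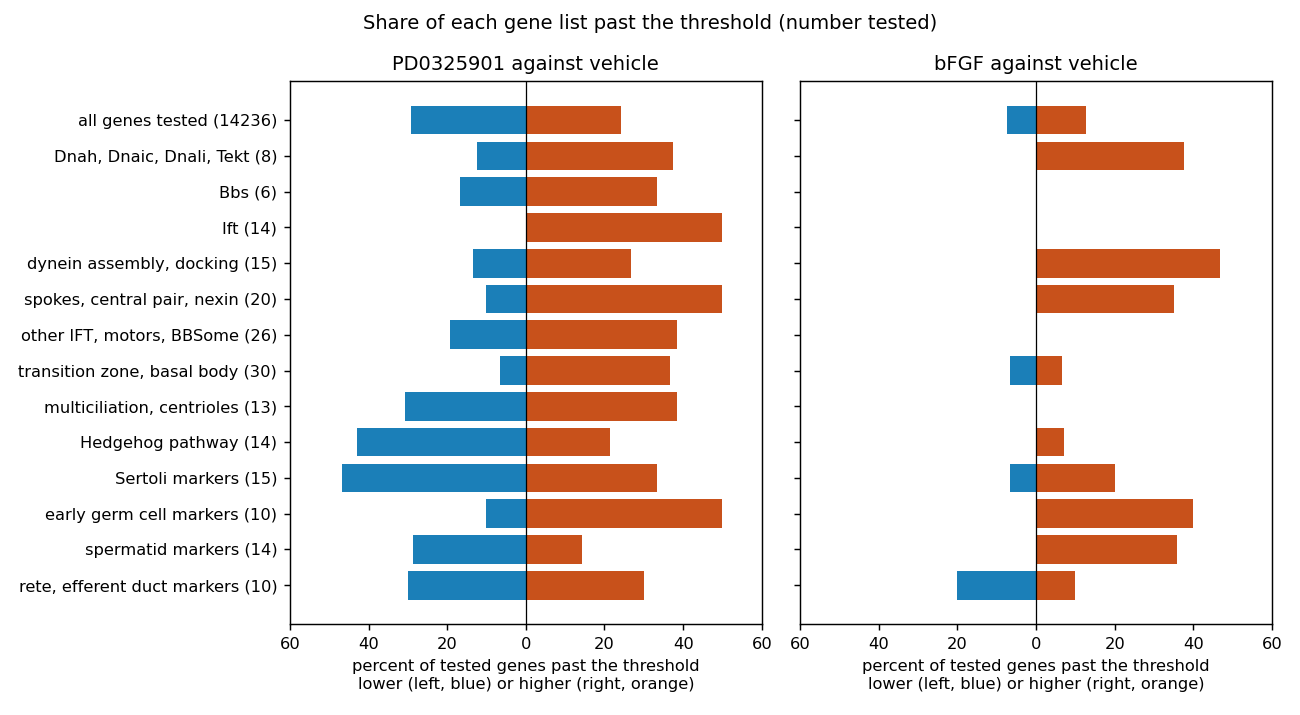
Percent of the tested genes of each list (vertical axis, number tested in parentheses) that passed as higher (orange, to the right) or lower (blue, to the left), for PD0325901 against vehicle and bFGF against vehicle. All genes stand at 24.1% higher and 29.3% lower on the left panel and at 12.6% and 7.28% on the right panel; on the right panel the Bbs and Ift rows are empty, whereas 7 of 15 dynein assembly genes and 5 of 14 spermatid markers are higher.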

How the data were processed

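Expression was measured on 6 single-colour Agilent arrays, 2 per group. Per the file headers, Agilent Feature Extraction 9.5.3.1 wrote the linear spot intensity that the authors deposited (9.5 in the submitters' processing notes), with the background subtracted and no normalization between arrays. The log2 table that the authors deposited was, within 0.01 for 100% of probes, the scanner's log2 signal after scaling each array and subtracting each probe's median. Its column medians ran from -0.06 to 0.02, its direction is that of the signal, and any constant shared by the 6 arrays is unknown; it served as an alternative. How the authors scaled it is not given in the sources used here.

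The 75th percentile of each array was subtracted from its log2 processed signal. Control spots and spots flagged as outliers were left out, which dropped 83 probes, and spots of a probe were averaged. Of 41174 probes, 23374 (56.8%) were named through their RefSeq accession and a RefSeq gene table (GRCm38.p6), and 17800 stayed unnamed. The array design used an older build, so no coordinates come from it. A gene was represented by its brightest detected probe. The 36 members have 57 probes: 19 members have 1 and 17 have several. The groups were compared with limma 3.58.1 in R 4.3.3 (lmFit and eBayes) fitted once to the 6 arrays, which left 3 residual degrees of freedom; p-values of 14236 genes were adjusted by Benjamini-Hochberg and called under 0.05. SE is the moderated standard error. The number of arrays limits the precision: the median SE of a difference was 0.0661 on the log2 scale.

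The members and lists were chosen with earlier results of these data known. Values on every array are given for the 8 single genes, for the up to 3 members per family with the widest difference past the threshold with PD0325901 and the up to 2 with bFGF, and for each family's member with the highest vehicle mean. Named as well, mostly by their differences alone, are the up to 2 genes higher and 2 lower with PD0325901 from each function list, and by its vehicle mean the gene of each marker list where that mean is highest. A gene that this rule names is not reported here. Other genes were named after their values were seen: Tekt4, Dnah5, Dnah11, Gli1, Wdr63, Lrrc6, Zmynd10, Rsph6a, Cfap206, Spata19, Acr, Meig1, Prm1, Ihh, Trp73, Myb, Krt19, Aqp1 and the genes named as below background. Arrays of a group were not copies of each other (0 identical signal profiles, r from 0.994 to 0.997). The alternatives were quantile normalization, normexp background correction (offset 50), the deposited table, no filter and a stricter filter on dim probes, the mean of a gene's probes, a replicate block, only the 2 groups compared, and leaving out each array. Counts without genes below background in a whole group were added after seeing the data.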

Additional observations from a re-analysis of the deposited data

How the results depend on the processing

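The 14 alternatives were run for every member (the stricter filter gave no value for Dnah5, Dnah11 and Rfx3), and 1 of them, normexp, used the median signal in place of the planned mean signal, chosen after seeing the data. With PD0325901 against vehicle, 14 family genes passed in the fit reported, 9 with the replicate block, and between 4 and 12 when an array was left out; 3 of the 14 (Tekt2, Bbs9 and Ift57) passed under all 14. For the function lists 64 genes passed, and between 36 and 57 with an array left out. With bFGF against vehicle, 3 family genes passed, 5 with normexp, 6 with probes above background on all 6 arrays, 1 with the replicate block, 1 with only the arrays of the 2 groups, and between 0 and 3 with an array left out; Dnali1 lost its call only without bFGF replicate 2. For the function lists 19 passed with bFGF, 11 with quantile normalization, 30 with normexp, 6 with the replicate block, 3 with only the 2 groups, and between 0 and 15 with an array left out. With PD0325901 against bFGF, 17 passed, and between 7 and 20 with an array left out; 5 passed under all alternatives that gave a value, among them Dnah5, which is detected through the bFGF arrays.

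Over all genes with bFGF, 1797 were higher and 1037 lower; the replicate block gave 967 and 443, only the 2 groups' arrays 838 and 301, and leaving out a bFGF array 446 and 99 (replicate 1) or 0 and 0 (replicate 2). Leaving out vehicle replicate 1 gave 1358 and 524, vehicle replicate 2 gave 1210 and 579, and either PD0325901 array 838 and 301. With PD0325901, 7596 genes passed, and without a PD0325901 array 2279 higher and 2805 lower or 2290 and 2849. Same-numbered arrays did not deviate together (correlations -0.08, 0.12 and -0.12), so the replicate numbers were not taken as pairs.

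Differences near 0 changed sign. With PD0325901, Ift22 was 0.051 with normexp and -0.085 to 0.030 with an array left out, Bbs4 -0.10 to 0.035 and Tekt4 -0.16 to 0.13. With bFGF, Dnaic1 was -0.023 with quantile normalization and -0.048 to 0.084 with an array left out, Tekt2 -0.011 with normexp and -0.039 to 0.19, and Dnah11 -1.42 to 0.30. Ift46, PD0325901 against bFGF, was -0.020 with its probes averaged, where a dim probe counts as much as the bright one. Another 12 results changed sign in 22 cases, none past the threshold. The causes were not tested.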

Other observations

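Probes of the same member did not always move together. Of 15 members with more than 1 detected probe, the probes differed in sign for 3 with PD0325901 against vehicle (Ift46, Ift52 and Rfx3) and for 6 with bFGF against vehicle (Bbs5, Ift172, Ift46, Ift57, Ift80 and Ift81). With PD0325901 against bFGF they differed for 4 (Ift46, Ift140, Ift172 and Spag16), of which Ift46 and Ift172 were called higher.

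Dim probes of 2 dynein heavy chains set the vehicle arrays apart. A second, not detected probe of Dnah8 stood at -3.90 on vehicle replicate 1 and between -9.39 and -7.46 on the other 5 arrays, and was well above background on vehicle replicate 1 only. The probe of Dnah11 stood at -5.36 on vehicle replicate 1, well above background, and at -7.08 on vehicle replicate 2, not above it. The bright probe of Dnah8, which stands for the gene, had -0.77 and -1.01 on the vehicle arrays.

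A second probe of Rfx3 was well above background on the bFGF arrays alone (-5.38 and -6.11), at least 1.39-fold above vehicle, where it had -8.01 and -7.63.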
